A study of Rattus norvegicus with 4 samples.

Results

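Of the 1936 probes on each array, 8 carried the symbol of 1 of 7 rat glutathione transferase genes (of 958 genes named) and of no other gene in the platform annotation. They were Gsta2 (probe 692), Gstm2 (861), Gstm5 (917), Gstm7 (1105), Gsto1 (402), Gstt1 (579 and 1160) and Mgst1 (377). The genes were taken by name, all of their probes were kept, and each probe is described by itself. Liver mRNA was compared on 4 two-colour cDNA arrays between male Sprague-Dawley rats of 250 to 300 g, 1 h after the common bile duct was tied off, and rats sham operated with the duct exposed but not tied. Both groups had a laparotomy under ether and received the same housing and food, and no drug or genetic change was named for either. Each RNA sample was a mix of livers from groups of 3 rats, so the spread between arrays is not a spread between animals and may be technical. Cy5 marked the ligated sample on arrays 1 and 3, and Cy3 marked it on the other pair, arrays 2 and 4.

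Glutathione transferases join the tripeptide glutathione to electrophilic compounds, which makes them water soluble and ready for export into bile or blood. The soluble enzymes fall into classes named by Greek letters, while the microsomal enzymes are unrelated proteins that sit in membranes. In liver the alpha and mu classes are abundant, and alpha-class proteins were long known as ligandin because they also bind bilirubin and bile acids without converting them. In rat, Gsta2 was among the genes in whose upstream region the antioxidant response element, a binding site of the stress factor Nrf2, was first defined.

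The values are log ratios of unstated base, read as ligated over sham, so a value above 0 is a higher signal after ligation. This direction is not settled: the labels name sham as the first channel and ligated as the second on each array, the second was taken as divided by the first, and every sign would turn if it was the other way. Arrays of the same dye orientation correlated at 0.858 and 0.943 over all probes, and arrays of opposite orientation at -0.926 to -0.77. The array medians were -0.88, 0.75, -0.73 and 0.87 for arrays 1 to 4. A probe far from the bulk in its dye behaviour therefore lies far from 0 after centring, whatever the operation did. If the numbers were instead Cy5 over Cy3, arrays 2 and 4 would have to be turned, and values in that reading are given beside the result. Under that reading a dye bias shared by all arrays would leave medians of the same sign. The medians here change sign with the dye on the ligated sample. Only ratios were at hand, so whether a transcript was abundant or near background, and whether the tissue showed its expected markers, could not be judged. In whole liver, fewer cells of a type and less RNA per cell cannot be told apart.

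The upstream sequences of 3 of these genes are shown because Gsta2 was the one member called different after ligation, while Gstm2 and Gstm5 were mu-class members that were not. Each line gives the 250 bases before the gene's start from RefSeq on GRCr8, read along the gene's own strand. Capitals mark matches, on either strand, to a CCAAT box (CCAAT), the antioxidant response element core (TGANNNNGC), an AP-1 site (TGAGTCA) or a TATA box (TATAAA).
Gsta2, chr8:88077093-88077342, minus strand: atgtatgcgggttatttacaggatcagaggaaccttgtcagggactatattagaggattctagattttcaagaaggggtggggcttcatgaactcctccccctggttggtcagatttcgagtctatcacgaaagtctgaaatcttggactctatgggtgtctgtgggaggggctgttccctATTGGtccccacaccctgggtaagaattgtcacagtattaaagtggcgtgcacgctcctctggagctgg
Gstm2, chr2:198316918-198317167, minus strand: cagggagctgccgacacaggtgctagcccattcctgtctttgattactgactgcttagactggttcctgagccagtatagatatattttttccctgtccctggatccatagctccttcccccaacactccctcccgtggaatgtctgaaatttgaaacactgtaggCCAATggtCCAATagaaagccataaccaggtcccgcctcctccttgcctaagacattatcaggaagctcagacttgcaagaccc
Gstm5, chr2:198219519-198219768, plus strand: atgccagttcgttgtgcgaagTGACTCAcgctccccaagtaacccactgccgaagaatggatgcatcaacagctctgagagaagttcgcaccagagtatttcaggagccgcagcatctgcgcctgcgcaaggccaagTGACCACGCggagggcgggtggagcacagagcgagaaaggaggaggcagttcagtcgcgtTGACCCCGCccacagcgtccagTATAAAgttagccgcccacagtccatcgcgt

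The Gsta2 window held a single match, a CCAAT box on the opposite strand at 69 to 65 bases before the start. The Gstm2 window held a pair of CCAAT boxes, and the Gstm5 window held 2 antioxidant element cores (TGACCACGC and TGACCCCGC), 1 AP-1 site and 1 TATA box, with no overlap between matches. Of 6 member genes with a sequence (Gstt1 had none), 3 held the antioxidant core (Gstm5, Gstm7 and Mgst1), 3 a CCAAT box, 1 an AP-1 site and 1 a TATA box. Among 33469 upstream windows of the same length, 34.7% held the antioxidant core, 34.0% a CCAAT box, 4.05% an AP-1 site and 12.9% a TATA box. The consensus inverted repeat of half-sites spaced by a single base, bound by the bile acid receptor FXR, was in no member window and in 0.0269% of all windows. These are matches of letters and not known sites. Only 250 bases were searched, so the lack of an antioxidant core in the Gsta2 window does not speak to sites further upstream.

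Gsta2, which encodes an alpha-class subunit, rose after ligation, and it was the only one of the 8 probes to pass the threshold. Its deposited log ratios were 0.47, 0.50, 0.51 and 0.76 on arrays 1 to 4. All 4 lay above 0 with either dye on the ligated sample, and 0.981% of all probes (19) shared that. Arrays 1, 2 and 3 lay close together and array 4 was highest. By its lowest array Gsta2 ranked 4 among those 19, behind both probes of Nr0b2, a bile acid induced repressor, and the nucleoside transporter Slc28a2.

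In a linear model with terms for the operation and the dye, fitted to all probes after each array was centred on its median, the Gsta2 log ratio was 0.55 ± 0.08 (SE, n = 4 arrays; limma adjusted p = 9.69e-07, 95% interval 0.39 to 0.72). That is 1.47-fold if the base of the log is 2, and 1.74-fold or 3.58-fold if it is e or 10. The estimate was the sixth highest of all, and Gsta2 was 1 of 18 called higher (0.930% of all probes), and 4.80% of all probes were called lower, with none of the 8 among them. Of those 93 lower calls, 60 lay in block 3, the third of 16 equal runs of consecutive probe numbers, which held no member probe and had a median estimate of -0.29. In either direction 5.73% of all probes were called, against 1 of these 8. The mean deposited value was 0.49 over the arrays with the ligated sample in Cy5 and 0.63 over those with it in Cy3. After centring, the same means were 1.29 and -0.18, so centred values agreed in sign within a dye and not between dyes.

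The size of the Gsta2 estimate moved little with a block correction, but the call depended on the setting. After a dye curve was subtracted within each of the 16 blocks, its values were 0.57, 0.46, 0.57 and 0.70 on arrays 1 to 4, with an estimate of 0.58 ± 0.04 (limma adjusted p = 1.01e-05; 6.97% of all probes were called, 3.51% as higher). Without centring the estimate was 0.56 ± 0.06 and did not pass (limma adjusted p = 0.103), in a fit that called 0.155% of probes. Leaving out centring shifts the estimates of all probes by the same small amount, so it does not test the size of that for Gsta2. From its own 4 values alone, with no spread borrowed from other probes, the 95% interval was 0.37 to 0.74. In that fit, lmFit of limma without moderation, the adjusted p was 0.700 and no probe of the array passed (94 had an unadjusted p under 0.05). Read as Cy5 over Cy3, the centred estimate was 0.74 ± 0.08 (limma adjusted p = 1.1e-12), where 82.6% of all probes passed, and all 8 member probes with them. As deposited, the same contrast was -0.07 ± 0.06 for Gsta2 (limma adjusted p = 0.348), so in that reading the sign came from centring and no call remained without it.

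**Figure D1:**
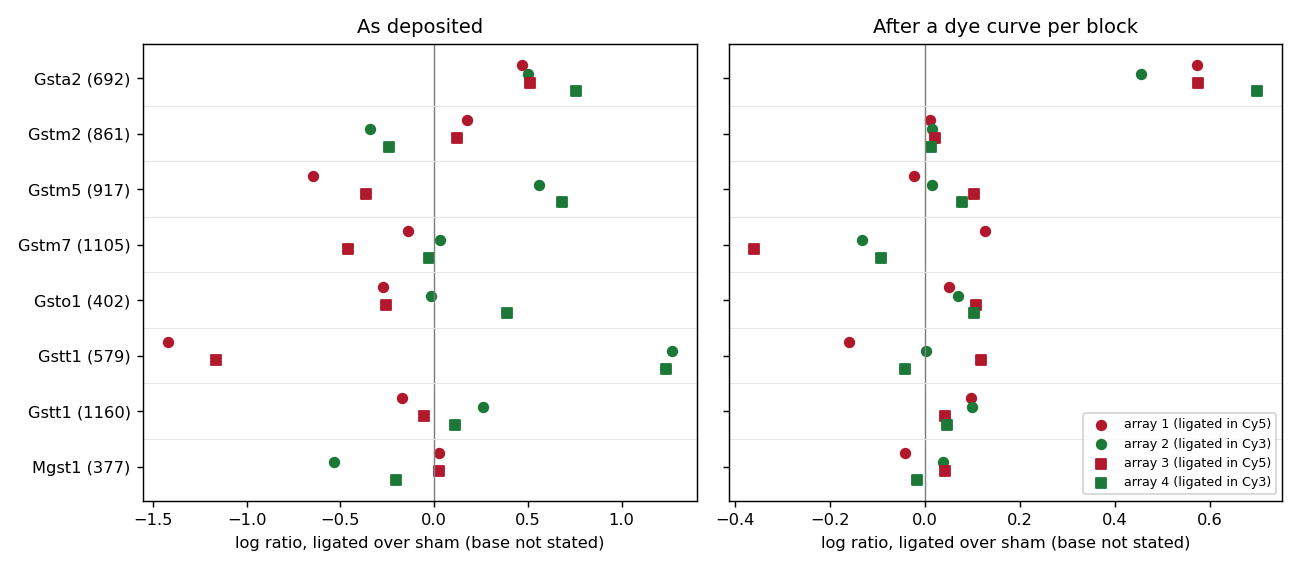
Log ratio of each of the 8 probes (gene and probe number) on each array, as deposited on the left and after the dye curve per block on the right; each point is 1 array, red for Cy5 and green for Cy3 on the ligated sample. Gsta2 lies between 0.47 and 0.76 on the left, above 0 on 4 of 4 arrays, while the other probes part by dye or lie on both sides of 0.

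The 3 mu-class probes did not pass. Gstm2, a mu-class subunit of liver, had deposited values of 0.17, -0.34, 0.12 and -0.24 on arrays 1 to 4. It was above 0 with the ligated sample in Cy5 and below 0 in Cy3, the opposite of most probes. Its operation estimate was -0.07 ± 0.08 (limma adjusted p = 0.919), and on block-corrected values all 4 arrays lay between 0.01 and 0.02. Gstm5 had deposited values of -0.65, 0.56, -0.36 and 0.68. It parted by dye the way most probes did, and its estimate was 0.05 ± 0.08 (limma adjusted p = 0.971).

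Gstm7 had deposited values of -0.14, 0.03, -0.46 and -0.02. Array 3 stood lowest, 0.32 below array 1 of the same dye orientation, against a median gap of 0.12 between those arrays over all probes. The estimate was -0.15 ± 0.09 (limma adjusted p = 0.457) and -0.12 ± 0.06 on block-corrected values (adjusted p = 0.340), the lowest of the 8 by that measure. In the reference annotation Gstm5, Gstm7 and Gstm2 belong to a run of 9 neighbouring Gstm genes on chromosome 2. A cDNA probe can bind transcripts of close relatives, here the other Gstm genes or, for Gsta2, the neighbouring gene Gsta5, and this was not tested.

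Gsto1, the omega-class enzyme that reduces dehydroascorbate and mixed disulfides, had deposited values of -0.27, -0.01, -0.26 and 0.39. The arrays with Cy5 on the ligated sample were nearly equal, and those with Cy3 were 0.41 apart. Its operation estimate was -0.04 ± 0.08 (limma adjusted p = 0.991). With the block curve subtracted it was above 0 on 4 of 4 arrays, at 0.05 to 0.11, with an estimate of 0.08 ± 0.03 that did not pass (limma adjusted p = 0.204). The same sign pattern was held by 19.3% of all probes and by 4 of the 8 members (Gsta2, Gstm2, Gsto1 and Gstt1 probe 1160).

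Gstt1, the theta-class enzyme that acts on small halogenated compounds, was measured by 2 probes that differed in dye behaviour. Probe 579 had deposited values of -1.42, 1.27, -1.16 and 1.24, and probe 1160 had -0.17, 0.26, -0.06 and 0.11. Both were negative where Cy5 marked the ligated sample and positive where Cy3 did, but probe 579 swung far wider. Between the 2 probes the dye contrast, the mean over arrays with each Cy3 array's sign turned, differed by 1.12 (-1.27 and -0.15). Their operation estimates of -0.02 ± 0.08 and 0.03 ± 0.08 lay 0.06 apart, less than 1 SE, and neither passed (limma adjusted p = 0.991 for both).

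Mgst1, the membrane-bound enzyme of endoplasmic reticulum and mitochondria, which also reduces lipid hydroperoxides, had deposited values of 0.03, -0.54, 0.02 and -0.20. Its values were near 0 on arrays 1 and 3 and below 0 on arrays 2 and 4. The operation estimate of -0.18 ± 0.08 was the lowest of the 8 and did not pass (limma adjusted p = 0.305, unadjusted p = 0.039). Mgst1 and Gsto1 lie in block 4, where the median estimate of all probes was -0.14. With the block curve subtracted, Mgst1 was at 0.00 ± 0.04 (adjusted p = 0.961).

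**Figure D2:**
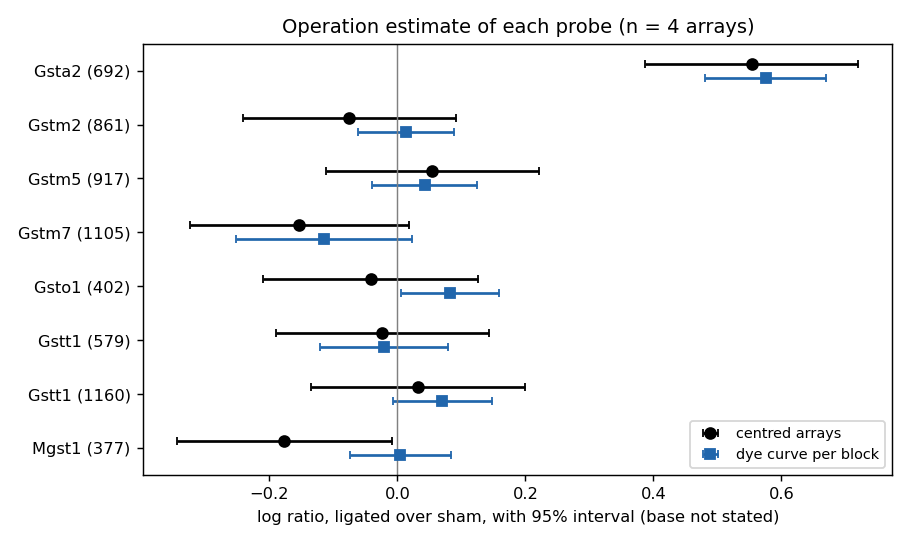
Operation estimate of each probe on the horizontal axis with its 95% interval (n = 4 arrays), black for centred arrays and blue after the dye curve per block. The Gsta2 interval runs from 0.39 to 0.72 on centred arrays, and the upper ends of the other 7 lie between -0.01 and 0.22.

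Over the 7 probes other than Gsta2, the estimates ran from -0.18 to 0.05 with a median of -0.04, beside a median of -0.02 over all probes. Their 95% intervals, which borrow their spread from all probes, reached from -0.34 to 0.22. From each probe's own 4 values alone the intervals were wider, reaching from -0.69 to 0.38 for Gstm7 and from -0.46 to 0.10 for Mgst1. After the dye curve per block the intervals ran from -0.25 to 0.16, and the median was 0.01. The adjusted p-values of the 7 were 0.305 or higher on centred arrays and 0.204 or higher after the curve.

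The dye contrast set the members apart from each other more than the operation did, as it did for probes in general. Over all probes the quartiles of the deposited dye contrast were -1.18 and -0.13, against -0.09 and 0.03 for the operation estimate. On centred arrays the dye coefficient was above 0 for 7 of the 8 probes, and Gstt1 probe 579 was the exception at -0.46. It was above 0 for 49.9% of all probes, a share that centring on the median largely fixes. The highest were Gstm2 at 1.03 and Mgst1 at 1.00, and Gsta2 was at 0.74, each ± 0.08 (SE). As deposited, 72.2% of all probes were negative with Cy5 and positive with Cy3 on the ligated sample, and 3 of the 8 were (Gstm5 and both Gstt1 probes). The opposite pattern was shown by Gstm2 and Mgst1 and by 6.66% of all probes. What sets a probe's dye contrast was not tested.

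**Figure D3:**
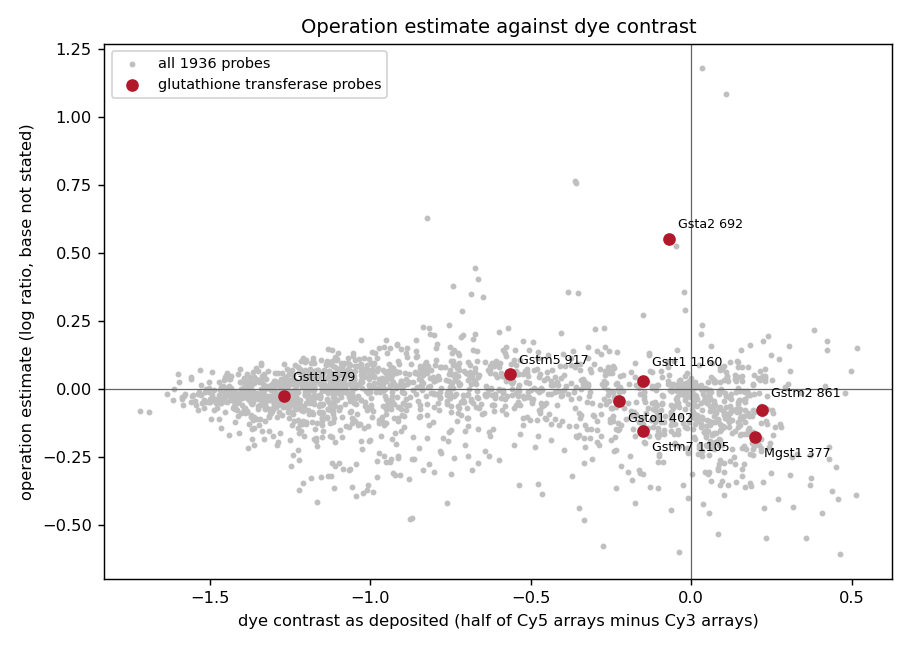
Each point is 1 probe, with its deposited dye contrast on the horizontal axis and its operation estimate on the vertical axis (log ratios of unstated base); red points are the 8 glutathione transferase probes and grey points all 1936 probes. Gsta2, at a dye contrast of -0.07 and an estimate of 0.55, has 5 probes above it, and the other 7 lie within the grey band over dye contrasts from -1.27 to 0.22.

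Gsta2 was next set against each other member gene on the same array, with both Gstt1 probes averaged, a difference that centring cannot change. It was chosen for this with its earlier call in these data known, so differences above 0 follow in part from that choice. The same Gsta2 values enter all 6 pairs, which are therefore not separate results. Against Gstm2 the difference was 0.29, 0.84, 0.38 and 1.00 on arrays 1 to 4, with a mean of 0.63 ± 0.17 (SE, n = 4). Against Gstm7, Gsto1 and Mgst1 the means were 0.71 ± 0.11, 0.60 ± 0.10 and 0.73 ± 0.16. In these 4 pairs Gsta2 was higher on 4 of 4 arrays, and the exact two-sided sign permutation test gave the smallest p that 4 arrays allow, 2 of 16 sign patterns (0.188 adjusted over the 6 pairs).

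Against Gstm5 the mean was 0.50 ± 0.29 and Gsta2 was higher on 3 of 4 arrays (exact p = 0.250, adjusted p = 0.300). Against Gstt1 it was 0.55 ± 0.38, again on 3 of 4 (exact p = 0.375, adjusted p = 0.375). In both pairs the exception was array 2, and the differences parted by dye. Against Gstm5 they were 1.11 and 0.87 on arrays 1 and 3, and -0.06 and 0.07 on arrays 2 and 4. Against Gstt1 they were 1.26 and 1.12, and -0.26 and 0.08, in the same order. Without array 1, which also leaves the dyes unbalanced, the means were 0.29 and 0.31. Without array 3 the Gstt1 mean was 0.36. No dye term was used for these differences, so the SEs of all 6 pairs include any dye contrast. The design cannot reach a p of 0.05 in this test. After the dye curve per block the 6 mean differences ran from 0.49 to 0.69, above 0 on 4 of 4 arrays in each pair.

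**Figure D4:**
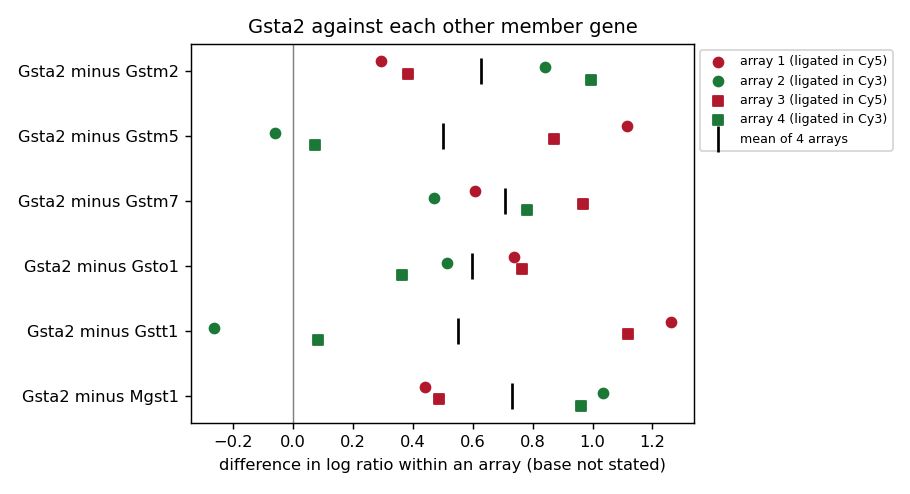
Difference in log ratio between Gsta2 and each of the other 6 member genes within an array; each point is 1 array, red for Cy5 and green for Cy3 on the ligated sample, and the bar is the mean of 4. All points lie above 0 but those of array 2 against Gstm5 (-0.06) and Gstt1 (-0.26).

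The probes most like Gsta2, by Euclidean distance over the 4 centred arrays among 1431 other probes with 1 symbol, were Slc28a2 (distance 0.230), the kinase Hipk3 (0.496), the retinoid receptor Rxrg (0.624), the vasopressin receptor Avpr1a (0.637) and the P450 enzyme Cyp2c22 (0.755). Slc28a2 had deposited values of 0.49, 0.60, 0.48 and 0.56, above 0 on all 4 arrays like those of Gsta2. The operation estimates of the 5 were 0.53, 0.36, 0.27, 0.29 and 0.24, and Cyp2c22 did not pass (limma adjusted p = 0.0991) but did on block-corrected values, at 0.28 (adjusted p = 0.00294). Other probes of these genes had lower estimates, -0.067 for Rxrg probe 1540 and 0.145 and 0.111 for Cyp2c22 probes 421 and 756. Likeness over 4 arrays describes these arrays and is not a test, and estimates above 0 follow from choosing probes near Gsta2.

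Of 26 other glutathione transferases and relatives listed, none had a probe with 1 symbol. Gstp3, named after its value was seen, had an estimate of -0.20 ± 0.09 (limma adjusted p = 0.222), and -0.04 ± 0.04 on block-corrected values. Another 2 probes carry more than 1 symbol each, a transferase symbol among them, and so are not named. Their estimates were -0.21 and 0.08, and neither passed (limma adjusted p = 0.163 and 0.895).

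Genes that make, recycle or use glutathione were measured for 10 of 27 listed, by 15 probes. None rose and 2 probes fell, where 0.930% of all probes were called higher and 4.80% lower, with a median estimate of 0.00 against -0.02 over all probes. Prdx6, a peroxiredoxin that uses glutathione as its reductant, fell by 0.46 ± 0.08 (limma adjusted p = 8.34e-05), and by 0.33 ± 0.04 on block-corrected values. A probe of Gpx4, the lipid hydroperoxide peroxidase, fell by 0.33 ± 0.09 (limma adjusted p = 0.0204). It lies in block 3, had 0.02 after the curve per block (adjusted p = 0.848), and the other 2 Gpx4 probes had -0.06 and 0.00. Gclm, the modifier subunit of the enzyme that starts glutathione synthesis, did not pass at its 3 probes (-0.14, -0.06 and -0.04), nor did glutathione synthetase (Gss) at 0.11 (limma adjusted p = 0.557 or higher).

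Of 45 other conjugation, hydrolysis and export genes listed, 4 were measured, by 1 probe each, and 1 fell, against 4.80% of all probes. It was the soluble epoxide hydrolase Ephx2, by 0.30 ± 0.08, or 0.15 ± 0.04 on block-corrected values (limma adjusted p = 0.0144 and 0.0326). The conjugate exporter Abcc2 had 0.05 ± 0.08, and rose by 0.19 ± 0.04 after the curve per block (limma adjusted p = 0.979 and 0.0102). The quinone reductase Nqo1, a standard target of Nrf2, had 0.02 ± 0.08 (limma adjusted p = 0.991). The exporter Abcc4 had 0.21 ± 0.09 (adjusted p = 0.160).

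Of 22 listed regulators of conjugation genes, 6 were measured, by 10 probes, of which 3 rose and 1 fell, beside the same 0.930% and 4.80% of all probes. Those that rose were both probes of a single gene, Nr0b2 (1.18 and 1.08), and Fos, a subunit of AP-1 (0.38), each ± 0.08. The one that fell was a block 3 probe of the glucocorticoid receptor Nr3c1 (-0.35 ± 0.09, limma adjusted p = 0.00705), which had -0.09 after the curve per block (adjusted p = 0.329) and whose other 2 probes did not pass. The bile acid receptor Nr1h4 and the dioxin receptor Ahr had -0.11 each and did not pass (limma adjusted p = 0.770 and 0.744). The median of the 10 probes was -0.08.

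Markers of other liver cells were sparse on the array. None of 5 cholangiocyte and none of 5 macrophage markers had a probe with 1 symbol. Hepatocyte markers were measured for 4 of 6 genes by 5 probes, with estimates from -0.24 to -0.04 and no call. The lowest, transthyretin (Ttr), fell by 0.17 ± 0.04 on block-corrected values (limma adjusted p = 0.0265). S100a9 (neutrophils) had 0.02 and 0.15 at its 2 probes, the endothelial markers Cdh5 and Kdr lay between -0.18 and -0.12, and none of these passed. Of 2 Col1a1 probes (stellate cells) 1 rose, by 0.34 ± 0.08, and of 2 Pf4 probes (platelets) 1 fell, by 0.30 ± 0.09. That Pf4 probe lies in block 3 and had -0.05 on block-corrected values (limma adjusted p = 0.480), and the other had 0.14 and did not pass. The part of cell makeup in the Gsta2 result was not tested.

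**Figure D5:**
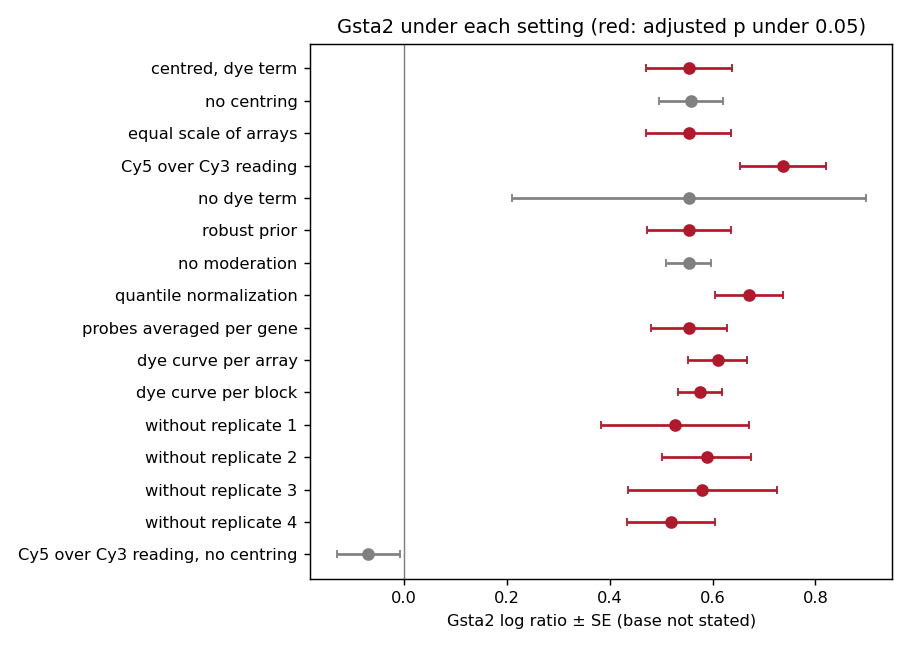
Gsta2 log ratio with its SE under each way of treating the arrays; red marks an adjusted p under 0.05. The estimates lie between 0.52 and 0.67, or at 0.74 in the Cy5 over Cy3 reading and -0.07 in that reading without centring. The grey points (no centring, no dye term, no moderation and that last one) did not pass.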

How the data were processed

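The deposited values are 1 log ratio per probe and array, treated here as a score because no source used here gives the scanner, any background correction or normalization, or the log's base. Per the labels' protocols, poly(A) RNA was purified from mixed total RNA and reverse transcribed with Cy3 or Cy5 nucleotides. The table holds 1936 probes on 4 arrays with 0 missing values. Symbols come from the platform annotation, updated by gene ID through RefSeq (GRCr8): 1432 probes had 1 symbol (1429 matched), 19 several and 485 none.

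Each array was centred on its median over all probes. A model with an operation and a dye term was fitted in R 4.3.3 with limma 3.58.1. P-values were adjusted over all probes by Benjamini-Hochberg, with a threshold of 0.05. With 2 residual degrees of freedom and a prior of 76.2, the SE (median 0.0841) draws mainly on the spread pooled over probes. The dye curve is a lowess (span 0.667) of each array on the dye contrast of all 4 arrays, so it uses the values it corrects, and SEs after it may be too small. Differences between genes were tested by exact sign permutation over arrays. The fit was tried on simulated arrays with known changes, noise of equal spread for all probes and no block shifts. That run does not cover the differences between blocks seen here. An earlier rule asked for the Cy5 over Cy3 reading, which is kept here only as an alternative. Medians that change sign with the dye would arise in ligated over sham ratios without dye correction. Named were all member probes, listed genes that passed and the 5 probes nearest to Gsta2. Members, lists and alternatives were chosen with earlier results of these data known. No intensities were used, so the number of arrays limits the precision.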

Additional observations from a re-analysis of the deposited data

Results flagged for a closer look

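Array 4 stood apart for Gsta2 among the deposited values, at 0.76 against 0.47 to 0.51 on the other 3 arrays. Its gap to the nearest array was 0.855 of the whole range, above Dixon's 95% critical value for 4 samples. Of 16 such checks on the 8 probes (as deposited and after the dye curve per block) this was the only one past it, and chance flags about 1 in 20. Without array 4 the Gsta2 estimate was 0.52 ± 0.09 (limma adjusted p = 5.37e-08, in a fit where all probes share an SE).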

How the results depend on the processing

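Read as ligated over sham, Gsta2 kept its direction in 13 alternatives and its call in 10. These are not 13 separate checks of direction. The estimate of 0.5538 cannot change without the dye term, with a robust prior, without moderation or with probes averaged. Leaving out centring shifts all probes alike. In the Cy5 over Cy3 reading Gsta2 was called at 0.74 on centred values. Without centring there, an alternative chosen after seeing the data, it was at -0.0696 (limma adjusted p = 0.348) and lost its direction and its call. It did not pass without centring (0.56, limma adjusted p = 0.103), without the dye term (0.55, adjusted p = 1.00) and without moderation (0.55, adjusted p = 0.700). Leaving out 1 array gave 0.52 to 0.59, with adjusted p-values from 5.07e-09 to 0.0282 in fits with 1 residual degree of freedom. The count of member probes called was 1 in 10 alternatives, 0 without centring, without the dye term and without moderation, and 8 in the Cy5 over Cy3 reading (3 there without centring). Over all probes the count moved from 111 to 3 without centring, 62 with equal scale of arrays, 67 with a robust prior, 12 with quantile normalization, 37 with probes averaged, 7 with a dye curve per array, 1599 in the Cy5 over Cy3 reading (1504 there without centring), and 0 without the dye term or without moderation in limma (5 and 94 at an unadjusted p under 0.05), and from 12 to 241 with 1 array left out. It was 135 after the dye curve per block. The 4 arrays form 1 group and each holds both samples, so every ratio already pairs ligated with sham within an array. No further pairing of arrays was made.

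Signs of members that did not pass turned as follows, and the cause was not tested. In the Cy5 over Cy3 reading Gstm2 had 1.03, Gstm7 0.66, Gsto1 0.58 and Mgst1 1.00, and the differences of Gsta2 from Gstm2 and Mgst1 were -0.29 and -0.27. In that reading without centring Gstm2 had 0.22, Gstm5 -0.56, Gstt1 probe 1160 -0.15 and Mgst1 0.20. Gstm2 had 0.023 with quantile normalization, 0.0137 with a dye curve per array and 0.0142 with one per block. Gsto1 had 0.014 with quantile normalization and 0.0823 after the dye curve per block, and from -0.11 to 0.03 with 1 array left out. Mgst1 had 0.0049 after the dye curve per block. Gstt1 as a gene had 0.0044 with its probes averaged, which is not a value of either probe. With 1 array left out, Gstt1 probe 579 had from -0.0608 to 0.0142 and probe 1160 from -0.0343 to 0.0984. With 4 arrays of pooled RNA and no intensities, neither animal variation nor signal over background could be weighed.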
